A study of Zea mays with 22 samples.

Results

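Root and immature ear are the organs of the irradiated maize plants that were studied without direct exposure to UV-B, the root growing below ground and the young ear lying inside its husk leaves. Their arrays were chosen by title, and 4 of the 22 arrays of the series belong to them, 2 titled for roots and 2 for immature ear. The 4 arrays hold only 2 distinct profiles, 1 for each organ. A further array titled immature ear matched a tassel array in each of its 15749 filled spots and was left out, so the identity of that shared profile, called tassel here, rests on its titles alone.

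UV-B is the short-wave part of sunlight that reaches the ground, and plants perceive it both through a dedicated photoreceptor and through the damage it does to DNA, proteins and membranes. Exposed leaves typically answer with flavonoid and other phenolic sunscreens, antioxidant enzymes, DNA repair and defence genes, and with lower expression of photosynthesis genes. Sugars, hormones and other mobile signals pass between exposed and unexposed organs of a plant.

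Each array set RNA of UV-B treated plants against RNA of plants not given UV-B, with 1 dye for each, and the treatment lasted 8 h for root, ear, seedling leaf, adult leaf and tassel. The labels describe the plants as a maize line poor in anthocyanin, the red and purple flavonoid pigments, so this background is shared by treated and control plants. The name of the line, the age of the plants and the number of plants pooled are not given in the sources used here. A leaf kept under a PE cover (an abbreviation the labels do not spell out), taken from UV-B treated and from control plants, was used beside root and ear, with no exposure time in its label.

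The values were log2 ratios at 16928 spots, of which 13832 (81.7%) were filled in the root profile and 8023 (47.4%) in the ear profile. Every 3 consecutive spots carried the same probe, so that 4808 of 5640 probes had a value in root (85.2%) and 2935 in ear (52.0%), with 2906 in both. Values are given as log2 ratios with each array's median at 0, so a value says where a transcript stood against the middle of its own array. Errors are the SD of the 3 spots of a probe on the array, with a median of 0.0463 in root and 0.0377 in ear. That SD covers spotting and reading of 1 hybridisation and leaves out the spread between plants, because the second column of each organ differed from the first by a constant (0.21 in root and 0.29 in ear) and is no replicate. No p-value can therefore be given for either organ by itself, and a difference of 1.5-fold or more is used as a description of size.

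The direction of the ratios is an assumption, namely that positive means more transcript after UV-B. The labels put the UV-B RNA in the first channel on 1 array of each organ and in the second channel on the other, while the columns have the same sign, so the labels do not settle it. If a profile runs the other way, its values above and below control exchange places. The ear profile correlated negatively across probes with adult leaf array 2 (Pearson r = -0.52, 1946 probes), as the root profile did more weakly (r = -0.21, 2121 probes). Adult leaf array 2 was also negative with seedling leaf (r = -0.14), adult leaf array 1 (r = -0.18), tassel (r = -0.24) and the PE-covered leaf (r = -0.35). Root and ear each correlated positively with seedling leaf, adult leaf array 1 and tassel, and negatively with the PE-covered leaf. The profiles thus do not share a settled direction. Of the marker genes chosen for root, none of 6 was named on the array, while 3 of 11 for ear and floral meristem and 4 of 6 for green leaf were, and ratios show change rather than the level of a marker. The labelled tissues were thus not checked against their markers.

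In root, 407 of 4808 probes (8.47%) lay at least 1.5-fold above control and 125 (2.6%) at least 1.5-fold below it. At 2-fold or more, 49 probes (1.02%) lay above and 3 (0.0624%) below. Of the 49, only 18 had all 3 spots filled, and 33 were blank in ear. In ear, 174 of 2935 probes (5.93%) lay at least 1.5-fold above control and 252 (8.59%) below, with 8 (0.273%) and 21 (0.716%) at 2-fold or more. The root profile thus had its longer tail above control and the ear profile below it. With the values as deposited, whose median was -0.09 in root and -0.16 in ear, the counts were 263 above and 219 below in root, and 58 above and 505 below in ear, so the balance between the directions depends on where the middle is placed.

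Gene names were available for 399 probes. In root, 352 of them had a value, of which 25 (7.10%) lay at least 1.5-fold above control and 10 (2.84%) below. In ear, 226 had a value, of which 13 (5.75%) lay above and 22 (9.73%) below. These shares are near those of all probes, and the named genes are no special sample of either profile.

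**Figure D1:**
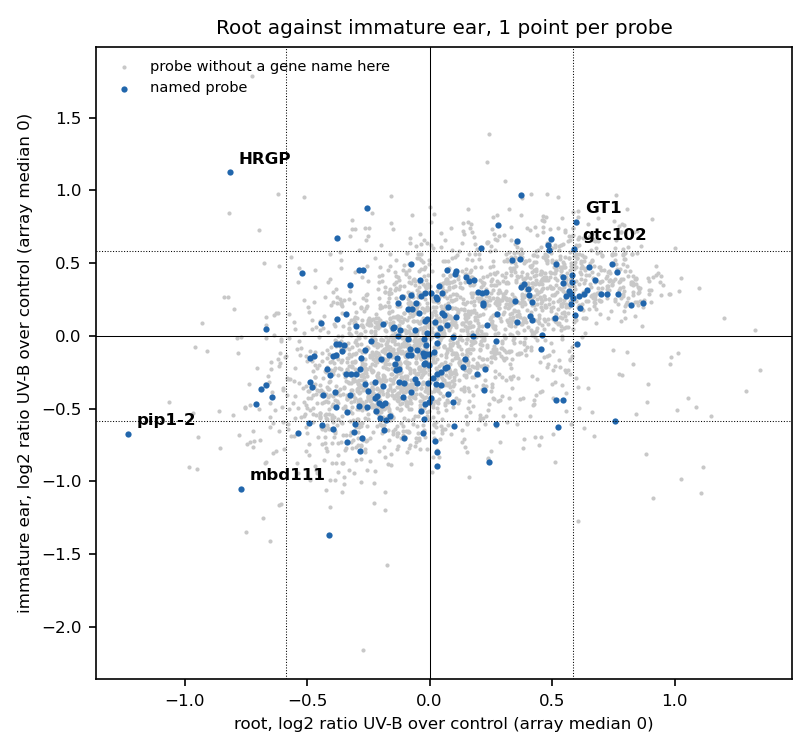
Each point is 1 of the 2906 probes with a value in both organs, with the log2 ratio of UV-B over control in root on the x axis and in immature ear on the y axis, both with the array median at 0. Dotted lines mark 1.5-fold, and the 5 named probes past it in both organs are labelled, with pip1-2 and mbd111 below control in both, GT1 and gtc102 above in both, and HRGP on opposite sides.

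Across the 2906 probes root and ear correlated with r = 0.49 and Spearman's rho = 0.53, and 2070 probes (71.2%) lay on the same side of 0 in both. At 1.5-fold or more, 44 probes (1.51%) lay above control in both organs, 27 (0.929%) below in both, 8 (0.275%) above in root and below in ear, and 5 (0.172%) the reverse. Among the 225 named probes with both values, r was 0.45 and 163 (72.4%) lay on the same side. The correlation across probes describes 1 array against 1 array of the same print, on which probes share blocks and source plates. Within the 8 print blocks it ranged from 0.43 to 0.63. Within 55 source plates of at least 20 probes it ranged from -0.06 to 0.80, with a median of 0.44, and it was above 0 in 54 of them.

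Source plate moved with both profiles. Plates were inferred from the order of the spots, with 12 positions in each of the 8 blocks read as 1 plate. Among the first 31 plates the median root value was above 0 in 28 and the median ear value in 26, while among the last 28 it was above 0 in 4 and 6. That division was drawn after the values were seen. The median over probes of the early plates was 0.12 in root and 0.16 in ear, and that of the late plates was -0.09 and -0.15. Plate 2 stood apart in root, with a median of 0.69 over 28 filled probes, 16 of which (57.1%) lay at least 1.5-fold above control. What is spotted on a plate and how it was printed cannot be told apart here. With each plate's median set to 0 the correlation was 0.42 and rho 0.45, and the probes at 1.5-fold or more above control in both organs numbered 21 instead of 44.

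**Figure D2:**
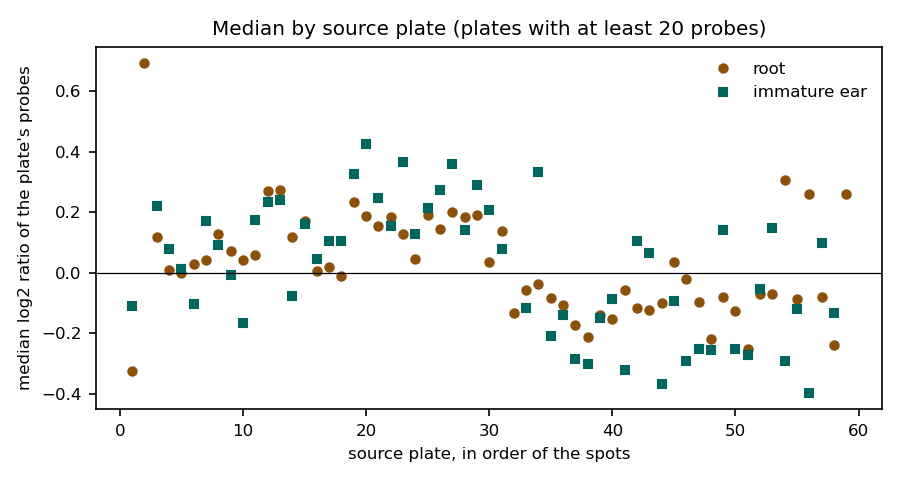
Median log2 ratio of UV-B over control of the probes of each source plate, in the order of the spots, for root (circles) and immature ear (squares), for plates with at least 20 probes of a value in that organ. Most plates up to plate 31 lie above 0 and most later ones below 0 in both organs, and root plate 2 is the highest point at 0.69.

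Print block touched the ear profile as well. Its medians lay above 0 in the 4 odd-numbered blocks and below 0 in the 4 even-numbered ones, from -0.16 to 0.16, while those of root ran from -0.05 to 0.08. Their part in the values of single genes was not tested beyond recomputing each named value with block or plate medians at 0.

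Of the named probes 5 passed 1.5-fold in both organs, and the lowest root value among them was that of an aquaporin. In whole organs, a lower ratio from fewer cells of a type and one from less RNA per cell cannot be told apart. The aquaporins are membrane channels for water and small solutes, the PIP type in the plasma membrane and the TIP type in the vacuole membrane, and they set how readily water crosses root cells. The probe of pip1-2, a plasma-membrane aquaporin, lay at -1.23 ± 0.05 (SD of 3 spots) in root, 2.35-fold below control, and at -0.67 ± 0.04 in ear, 1.59-fold below. Root was its lowest profile and ear the next lowest. In the exposed organs pip1-2 was at -0.44 in seedling leaf, -0.07 on adult leaf array 1 and 0.49 in tassel, and it reached 1.32 in the PE-covered leaf, 1 of the shielded samples, so the shielded samples lay at both ends of its range. With print block medians at 0 the ear value was -0.56, and with profiles scaled to equal spread it was -0.53, both just short of 1.5-fold.

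The other aquaporins were mixed. Of 14 aquaporin probes with a root value, none lay at least 1.5-fold above and 2 below, with a median of -0.15. Of 11 with an ear value, 1 lay above and 2 below, with a median of 0.08. Over all probes, as a measure for each gene list, 8.47% lay above and 2.6% below in root, and 5.93% and 8.59% in ear. The second root probe below was one for the tonoplast aquaporin TIP1-1, at -0.64 ± 0.02 in root and -0.42 ± 0.02 in ear, and it was also at -0.63 in tassel and -0.78 in seedling leaf. The other TIP1-1 probe was at -0.44 in root and 0.09 in ear. TIP2-1, another tonoplast aquaporin, had probes at 0.24 and 0.34 in root but at -0.86 and 0.52 in ear, so its 2 ear probes lay on opposite sides of 0. TIP4-1, at 0.49 in root and 0.59 in ear, was the only aquaporin probe past 1.5-fold above control in ear.

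HRGP, a hydroxyproline-rich glycoprotein of the cell wall, had the widest gap between root and ear of all named probes. It lay at -0.81 ± 0.04 in root and at 1.12 ± 0.05 in ear, 1.76-fold below and 2.18-fold above control, a difference of 1.94 between the organs. Its values elsewhere were smaller, at 0.35 in seedling leaf, -0.05 on adult leaf array 1, -0.18 in tassel and -0.12 in the PE-covered leaf. It stayed past 1.5-fold on opposite sides with values as deposited, with block or plate medians at 0, with the median of the spots and with scaled profiles. The difference between the organs has no test, since each is 1 profile.

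Other cell wall genes were mixed. Of 21 cell wall probes with a root value, 2 lay at least 1.5-fold above and 2 below (median -0.15), and of 13 with an ear value, 1 above and 2 below (median -0.05). The expansin expA4, of a family of proteins that loosen the wall during growth, lay on the same sides as HRGP, at -0.52 ± 0.06 in root and 0.43 ± 0.15 in ear. The cellulose synthase CesA-8 was at -0.28 in root and -0.70 ± 0.02 in ear, and its ear value was -0.34 with plate medians at 0 and -0.55 with block medians at 0 or with scaled profiles. One probe for pgl1, a polygalacturonase, was at -0.78 ± 0.01 in root with no ear value, but the mean of the gene's 6 filled probes was -0.13.

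**Figure D3:**
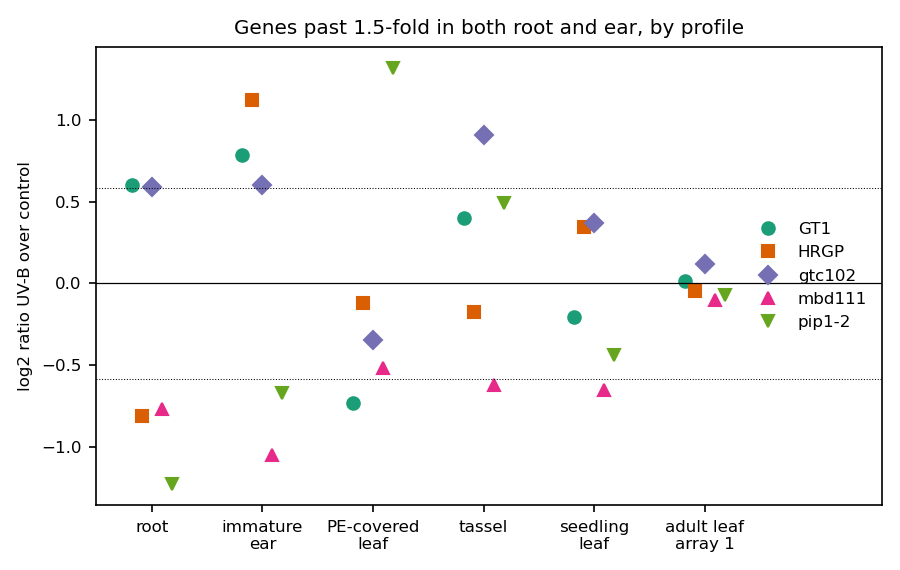
Log2 ratio of UV-B over control for the 5 named probes past 1.5-fold (dotted lines) in both root and immature ear, shown in 6 profiles, with 1 point per probe and profile and small sideways offsets for legibility. pip1-2 runs from -1.23 in root to 1.32 in the PE-covered leaf, while mbd111 lies below 0 in all 6.

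The chromatin genes mbd111 and gtc102 each had a probe past 1.5-fold on the same side in both organs. mbd111 encodes a protein with a methyl-CpG-binding domain, a fold that reads methylated DNA. Its probe was at -0.77 ± 0.04 in root and -1.05 ± 0.08 in ear, and also at -0.66 in seedling leaf, -0.63 in tassel and -0.52 in the PE-covered leaf, so root and ear were the lowest but not alone. A second probe of mbd111 lay at 0.22 in root and 0.21 in ear, and with the probes averaged neither organ passed 1.5-fold. gtc102, a gene for a subunit of the FACT complex that moves nucleosomes aside during transcription, was at 0.59 ± 0.09 in root and 0.60 ± 0.10 in ear, barely past 1.5-fold, and higher, at 0.91, in tassel. With plate medians at 0 gtc102 was at 0.45 in root and 0.23 in ear, and as deposited at 0.50 and 0.44. With the median of the spots both values were 0.56, so each of these settings left both organs short of 1.5-fold. With block medians at 0 (0.46) and with scaled profiles (0.47) the ear value alone was short. The histone acetyltransferase gene hac106 lay at -0.71 ± 0.04 in root and at -0.47 in ear, where 1 spot was filled.

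Of 22 chromatin probes with a root value the median was 0.0082, with 1 at least 1.5-fold above and 2 below. Of 16 with an ear value the median was -0.31, with 1 above and 3 below and 11 under 0. Besides mbd111 the ear probes below were those of met2 and dmt101, both DNA methyltransferase genes, at -0.80 ± 0.03 and -0.61 ± 0.02, with root at 0.03 and 0.27. For met2 the ear value was -0.45 with plate medians at 0. The median of the 16 ear values was then -0.12, with 1 at least 1.5-fold above, 1 below (mbd111) and 11 under 0. The median of all probes was 0 by construction, and that of the named probes was -0.02 in root and -0.05 in ear.

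GT1 was the remaining gene above control in both organs, at 0.60 ± 0.05 in root and 0.78 ± 0.03 in ear. It was at 0.40 in tassel, 0.02 on adult leaf array 1, -0.21 in seedling leaf and -0.73 in the PE-covered leaf. Its root value was short of 1.5-fold as deposited, at 0.51, and with plate medians at 0, at 0.50.

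Among named probes with all 3 spots filled and a spot SD smaller than 0.5 of the value, the highest in root was that of In2-1, a gene known for its induction by herbicide safeners, at 1.10 ± 0.31 with the ear blank, and its wide spot SD makes the size uncertain. Next came crp1, for a pentatricopeptide-repeat protein of chloroplast mRNAs, at 0.87 ± 0.04 in root and 0.22 ± 0.02 in ear. On the same terms it was followed by the MADS-box gene m28 at 0.82 ± 0.05, the sulfhydryl oxidase gene qsox1 at 0.77 ± 0.05, and LOC541988 at 0.77 ± 0.09. In ear m28 was at 0.21, qsox1 at 0.29 and LOC541988 at 0.44. mha2, for the plasma-membrane proton pump that energises nutrient uptake, was at 0.74 ± 0.06 in root and 0.49 ± 0.07 in ear. The aldehyde dehydrogenase gene rf2d was at 0.70 ± 0.02 and 0.29 ± 0.03, and reached 0.66 in tassel. ATP-D was at 0.72 ± 0.03 and NMP1 at 0.69 ± 0.13, the latter blank in ear.

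Named probes with fewer spots also lay this high, ZCAX2 at 1.59 from 2 spots, and zmm16 at 0.84 and opr8 at 0.77 from 1 spot each. Of the 10 highest root genes with all spots filled all but LOC542193 were above control or blank in ear. LOC542193 was at 0.76 ± 0.04 in root and -0.58 ± 0.06 in ear. Its source plate, plate 56, had a median of 0.26 in root and -0.40 in ear. With plate medians at 0, qsox1, LOC541988, LOC542193, mha2 and ATP-D were short of 1.5-fold in root.

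The lowest named root probes with all 3 spots, after pip1-2, HRGP, pgl1, mbd111 and hac106, belonged to glb2, a seed globulin gene, at -0.69 ± 0.05, LOC100101527 at -0.67 ± 0.03 and ATP2, for a mitochondrial ATP synthase subunit, at -0.67 ± 0.08. Each of these 3 genes had a second probe nearer or above 0 in root, at 0.03 for glb2, 0.58 for LOC100101527 and -0.03 for ATP2. In ear the same probes were at -0.37 for glb2, 0.05 for LOC100101527 and -0.34 for ATP2. With plate medians at 0 the root values of hac106 (-0.48), LOC100101527 (-0.44) and the lower TIP1-1 probe (-0.42) were short of 1.5-fold. None of the 6 root genes named among the extremes that have several probes stayed past 1.5-fold when the probes of the gene were averaged. Over all 44 genes with several root probes, the median range between probes was 0.331, and it was under 1.5-fold in 33.

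**Figure D4:**
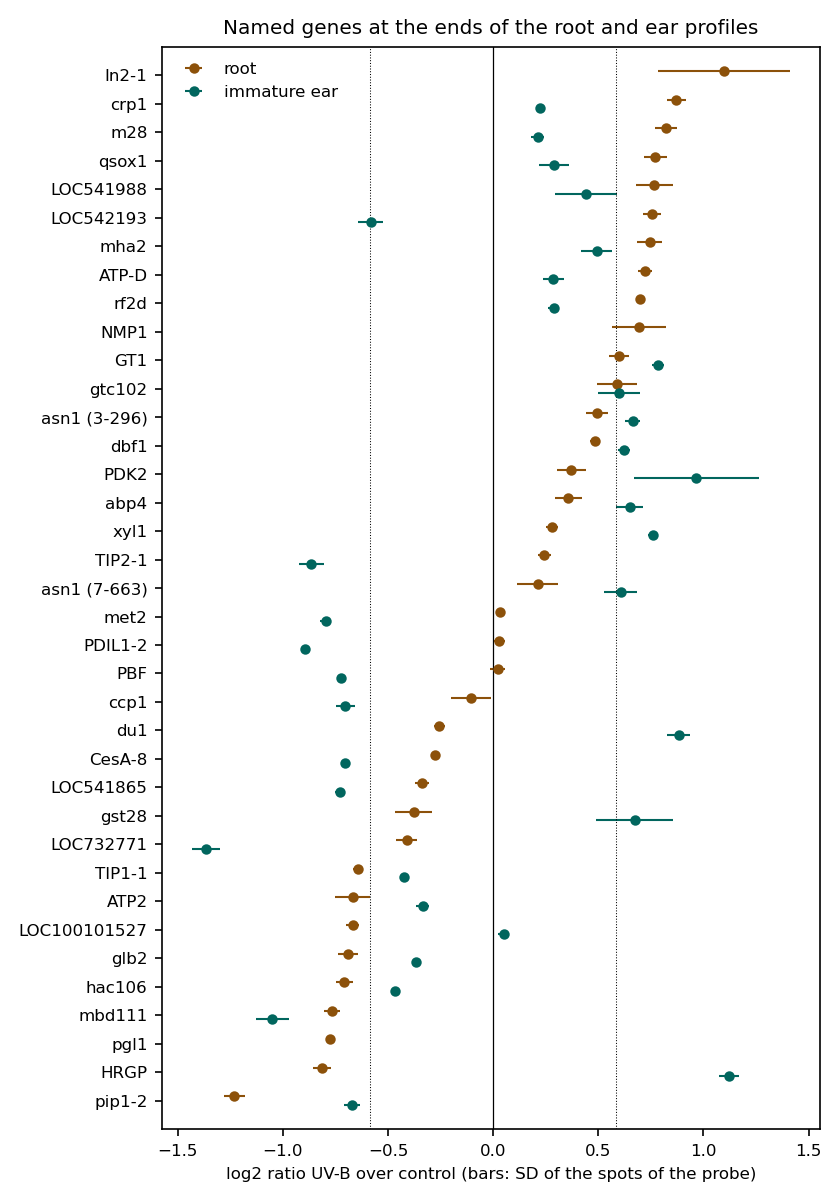
Log2 ratio of UV-B over control in root and immature ear for the named probes with all 3 spots filled at the ends of either profile, ordered by the root value, with bars for the SD of the spots and dotted lines at 1.5-fold. A missing ear point means a blank value, and HRGP, du1 and gst28 are the probes with ear values above 1.5-fold and root values below 0.

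In ear, on the same terms as for root, the highest named probes after HRGP were those of PDK2, a pyruvate dehydrogenase kinase that holds back entry of pyruvate into respiration, at 0.97 ± 0.30, and du1, a starch synthase, at 0.88 ± 0.05. PDK2 was at 0.37 ± 0.07 in root, whereas du1 was at -0.26 ± 0.03 there and at 0.88 in seedling leaf. The glutathione transferase gene gst28 was at 0.67 ± 0.18 in ear and -0.38 ± 0.09 in root. xyl1 was at 0.76 ± 0.02 in ear and 0.28 in root, and abp4, an auxin-binding protein gene, at 0.65 ± 0.07 and 0.36. In ear abp4 was short of 1.5-fold as deposited (0.49), with block (0.51) or plate (0.35) medians at 0 and with scaled profiles (0.51). The ear value of gst28 was short of it as deposited (0.51), with block medians at 0 (0.53) and with scaled profiles (0.53). That of xyl1 was short with plate medians at 0 (0.53).

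Asparagine synthetase was seen by 2 probes. asn1, whose enzyme makes the nitrogen-rich transport amino acid asparagine and is known in plants to respond to sugar shortage and darkness, was at 0.66 ± 0.03 and 0.61 ± 0.08 in ear, so both probes lay past 1.5-fold. Both were short of it as deposited (0.50 and 0.45), with block medians at 0 (0.57 and 0.57) and with scaled profiles (0.52 and 0.48). In root they were at 0.49 ± 0.05 and 0.21 ± 0.10. dbf1, for a transcription factor that binds drought-responsive elements, was at 0.62 ± 0.03 in ear and 0.48 ± 0.02 in root, and between -0.23 and 0.07 in the seedling leaf, adult leaf array 1 and tassel profiles. Both dbf1 and the first asn1 probe were short of 1.5-fold in ear with plate medians at 0. The ear value of dbf1 was also short of it as deposited (0.46), with block medians at 0 (0.58) and with scaled profiles (0.49).

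The lowest named ear probe with all 3 spots was LOC732771 at -1.36 ± 0.07, with root at -0.41 ± 0.05. The disulfide isomerase gene PDIL1-2, whose product helps secreted proteins fold, had ear probes at -0.89 ± 0.02, -0.64 ± 0.05 and 0.10, against 0.03, -0.40 and 0.02 in root. PBF, for the prolamin-box binding factor of the endosperm, was at -0.72 ± 0.0045 in ear and 0.02 in root. The cysteine protease gene ccp1 was at -0.70 ± 0.04 in ear and -0.11 in root, and LOC541865 at -0.73 ± 0.02 in ear and -0.34 in root. With plate medians at 0 the ear values of PBF (-0.38) and LOC541865 (-0.39) were short of 1.5-fold. With scaled profiles those of PBF (-0.57), LOC541865 (-0.58) and ccp1 (-0.55) were, and with block medians at 0 that of LOC541865 (-0.58).

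Of 7 folding and chaperone probes with an ear value, 3 lay at least 1.5-fold below control and none above, with a median of -0.37, where 8.59% of all ear probes lay below. With plate medians at 0, 1 of the 7 did. Of the 3 probes 2 were of PDIL1-2, whose 3 probes averaged -0.48 in ear, short of 1.5-fold, and the third was of crt2, for calreticulin, a calcium-binding chaperone of the endoplasmic reticulum, at -0.62 ± 0.05 in ear and -0.44 ± 0.04 in root. Of 11 with a root value, 1 lay above (qsox1) and none below, with a median of 0.05. The heat-shock gene hsp70-4 was at 0.22 ± 0.14 in root and -0.37 ± 0.05 in ear.

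Photosynthesis genes, which root and young ear use little, were below the array median in most ear values. Of 8 photosynthesis probes with an ear value, 6 lay below 0 and 2 at least 1.5-fold below, with a median of -0.39, where 8.59% of all ear probes lay 1.5-fold below. These were ssu1, the small subunit of Rubisco, at -0.67 ± 0.05, and pdk1, the pyruvate orthophosphate dikinase of the C4 pathway, at -0.62 ± 0.03. With print block medians at 0 none of the 8 ear values lay 1.5-fold below, and with plate medians at 0, 1 did. In root ssu1 was at -0.54 ± 0.02 and pdk1 at 0.10 ± 0.03, and over 14 probes the median was -0.05 with crp1 the 1 probe past 1.5-fold. In tassel ssu1 was at -0.60 and in the PE-covered leaf at -0.95. The transcript level of these genes in root and ear is not known from ratios.

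The MADS-box and floral list, whose transcription factors specify flower organs and meristems, lay mostly above control in both organs, and the probes with an ear value come from early source plates, whose medians were above 0. Of 8 probes with a root value, 6 lay above 0 and 3 at least 1.5-fold above, with a median of 0.46, where 8.47% of all root probes lay 1.5-fold above. These were m28, zap1 at 0.64 ± 0.07, and zmm16 at 0.84, the last from 1 spot. Below 0 in root were m1 at -0.52 and m4 at -0.31, both blank in ear. All 4 with an ear value lay above 0, with a median of 0.36, led by si1 (silky1, a floral B-class gene) at 0.53 ± 0.06 in ear and 0.37 ± 0.07 in root. M7 was at 0.54 and 0.41. In ear none passed 1.5-fold. With plate medians at 0 the list's median was 0.27 in root, with 2 probes at least 1.5-fold above, and 0.15 in ear, with 3 of 4 above 0.

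**Figure D5:**
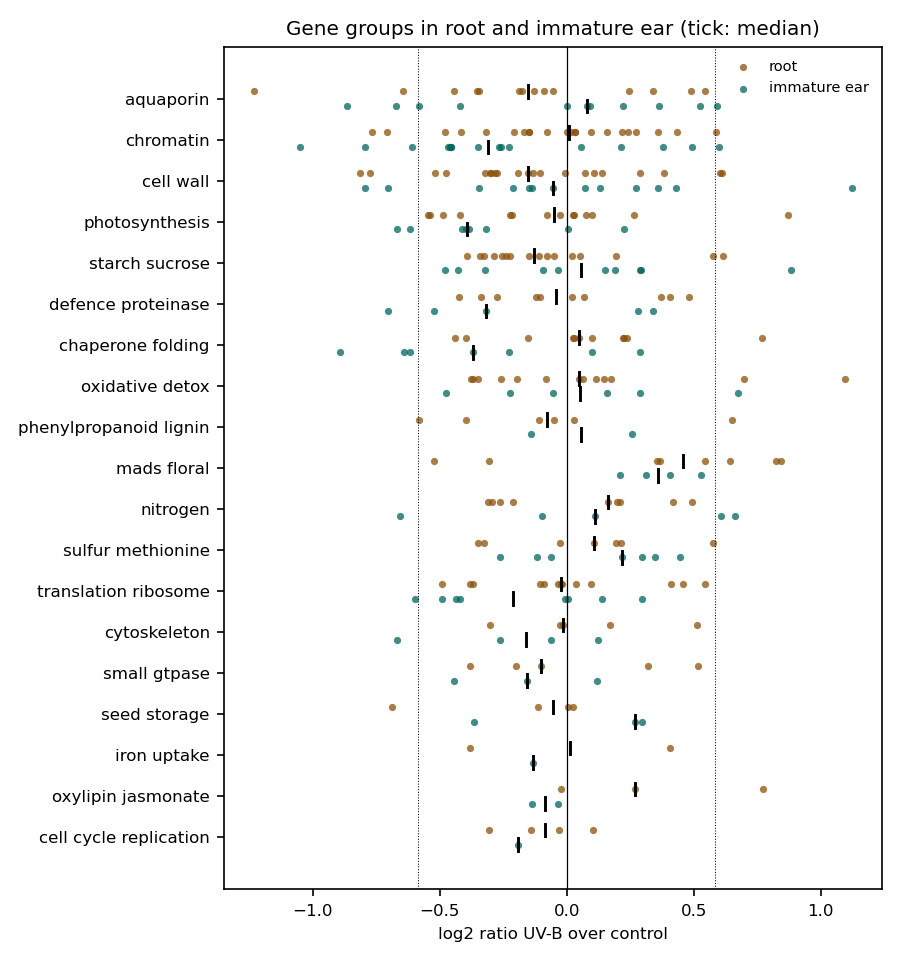
Log2 ratio of UV-B over control of every filled probe of 19 gene groups in root and immature ear, with a tick at each group's median and dotted lines at 1.5-fold. The floral group lies mostly above 0 in both organs, while the ear medians of the photosynthesis and folding groups lie near -0.4.

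Genes usually tied to UV-B and stress are given next, beside a share of all probes past 1.5-fold either way of 11.1% in root and 14.5% in ear. Of 6 phenylpropanoid and lignin probes with a root value, 1 lay above, for cncr1, a cinnamoyl-CoA reductase gene of lignin synthesis, at 0.65 ± 0.11, and none below. PAL1, for the enzyme that opens the phenylpropanoid pathway, was at -0.58 ± 0.03 in root, a hair short of 1.5-fold below, and blank in ear. Of 10 defence and proteinase probes in root none passed 1.5-fold in either direction, and of 5 in ear 1 did, ccp1 below control. The chitinase gene chn1 was at 0.02 in root and blank in ear, where the PE-covered leaf had 1.47. Of 13 detoxification and antioxidant probes in root, 2 lay above (In2-1 and rf2d) and none below, and of 6 in ear, 1 (gst28) lay above. The jasmonate and oxylipin genes, named once their annotation had been seen, were at 0.27 in root and -0.04 in ear for aos1 (allene oxide synthase), and at -0.02 and -0.14 for hpl1 (hydroperoxide lyase). opr8, for an oxophytodienoate reductase, was at 0.77 in root from 1 spot.

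None of 13 translation and ribosome probes passed 1.5-fold in root (median -0.02), and 1 of 8 did in ear, elfa2, an elongation factor 1-alpha gene, at -0.60 ± 0.05 (root -0.49 ± 0.01). Of 16 starch and sucrose probes in root, 1 lay above, 1 of the 3 phi1 probes at 0.61 ± 0.02, and none below. The other phi1 probes were at -0.39 and 0.05 in root, and the mean of the 3 was 0.09. Of 10 in ear du1 was the 1 above. Beside asn1, the nitrogen genes included NIR, for nitrite reductase, at -0.66 ± 0.03 in ear and -0.31 ± 0.02 in root. The alpha-tubulin gene tua4 was at -0.67 ± 0.08 in ear and -0.03 ± 0.02 in root. The small GTPase gene ypt1, of vesicle traffic, was at 0.52 ± 0.03 in root and -0.44 ± 0.01 in ear. The ribosomal stalk gene RP-P0 was at 0.54 ± 0.02 and -0.44 ± 0.12 by 1 of its probes. Both of these probes come from source plate 54, whose own median was 0.31 in root and -0.29 in ear. None of 7 sulfur and methionine probes passed 1.5-fold in either organ, with gsh2, of glutathione synthesis, nearest at 0.58 ± 0.04 in root. None of 4 cell cycle and replication probes passed it in root (median -0.08), and the 1 with an ear value, for the replication clamp pcna1, was at -0.19.

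The probes past 1.5-fold in 1 shielded organ were then read in the other profiles, which had no part in choosing them. Of the 407 probes above control in root, 295 had an ear value and 262 of these (88.8%) lay above 0 there, with a median of 0.36, though only 44 passed 1.5-fold. In tassel 312 of 402 (77.6%) lay above 0, with a median of 0.24. In seedling leaf it was 183 of 348 (52.6%), and 245 of 367 (66.8%) on adult leaf array 1. In the PE-covered leaf it was 82 of 395 (20.8%), with a median of -0.30. The 174 probes above control in ear showed 137 of 167 (82.0%) above 0 in root, 119 of 171 (69.6%) in tassel and 113 of 163 (69.3%) in seedling leaf. They showed 76 of 158 (48.1%) above 0 on adult leaf array 1 and 44 of 171 (25.7%) in the PE-covered leaf. For these probes the PE-covered leaf, the third shielded sample, lay mostly on the other side of 0, as the directions are read here. Turning either profile exchanges the sides.

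Below control the picture was similar for root and ear. Of the 125 probes below in root, 67 of 85 (78.8%) lay below 0 in ear, with a median of -0.37, and of the 252 below in ear, 193 of 251 (76.9%) in root. In tassel the shares were 101 of 125 (80.8%) and 199 of 251 (79.3%). In seedling leaf they were 62 of 121 (51.2%) and 159 of 244 (65.2%). On adult leaf array 1 they were 86 of 116 (74.1%) and 144 of 245 (58.8%). In the PE-covered leaf they were 72 of 124 (58.1%) and 127 of 252 (50.4%). Of all 2906 probes with both values, 71.2% lay on the same side of 0 in root and ear. That share is for root with ear alone, and no share over all probes is given here for the other profiles. Across all probes root correlated with tassel at r = 0.33 (4779 probes) and ear at 0.39 (2918 probes), against -0.22 (4770) and -0.11 (2926) with the PE-covered leaf. These shares carry no test, and the shared print layout enters each of them.

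Root and ear were also compared, as 2 organs, with the directly exposed seedling leaf, adult leaf and tassel, in a limma fit with organs as the replicates (moderated two-sided test, Benjamini-Hochberg adjustment over 2797 probes). No probe had a mean of root and ear different from 0 at an adjusted p of 0.05 (0%), while 649 had an unadjusted p under 0.05 and the smallest adjusted p was 0.108. Among named genes it was reached by mbd111, with a mean of -0.91 (SE 0.204), and by pip1-2, with a mean of -0.95 (SE 0.225).

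For the difference between shielded and exposed organs 1 of 2797 probes (0.0358%) passed, while 275 had an unadjusted p under 0.05. It was the unnamed probe 4_71, written as block and position in the block, with a difference of -1.76 (SE 0.307, limma adjusted p = 0.0335). It was at -0.54 in root and -0.87 in ear, against 0.70 in seedling leaf, 0.68 in tassel, and 0.13 and 3.44 on the 2 adult leaf arrays. The call was lost with adult leaf array 1 alone, with block or plate medians at 0, with the median of the spots and with all 3 spots required. The nearest named gene was pip1-2, with a difference of -0.95 (SE 0.290, limma adjusted p = 0.362), followed by PDK2 with 0.77 (SE 0.263, limma adjusted p = 0.454). The PE-covered leaf, which was not in this fit, had 4_71 at -0.88 and pip1-2 at 1.32.

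Probes with no gene name here reached further than the named ones, except below control in root, where pip1-2 was the lowest of all. Among unnamed probes the 2 highest in root were probes 2_174 at 2.41 and 4_7 at 2.25, each from 1 spot and blank in ear, and the 2 lowest were 1_506 at -1.06 ± 0.05 and 2_104 at -1.04 ± 0.05. In ear the 2 highest unnamed probes were 3_356 at 1.79 ± 0.30 and 8_278 at 1.39 ± 0.06 from 2 spots, and the 2 lowest were 4_68 at -2.16 ± 0.05 and 6_162 at -1.57 ± 0.04. Probe 3_356 was at -0.72 in root, on the other side of 0 as HRGP was, while 4_68 was at -0.27 and 6_162 at -0.18.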

How the data were processed

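The authors deposited log2 ratios of the 2 channels per spot, and their background correction, normalization and filters are not given in the sources used here. Intensities were not used, so precision is limited by the number of arrays. Columns that differed by a constant (tolerance 1e-06) were used once. Each profile was centred on its median and 3 consecutive spots in blocks of 2116 were averaged. Names came from the platform annotation (399 probes, 329 genes, 314 of them in the Zm-B73-REFERENCE-NAM-5.0 gene table, 42 with a LOC number only, 2 probes with several genes left unnamed, 5239 unnamed).

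Named genes were, per organ, the 10 highest and 10 lowest named probes with all 3 spots, 1.5-fold or more, and a spot SD smaller than 0.5 of the value (where fewer passed, all that did), every gene past 1.5-fold in both organs, and up to 4 members of each of 19 lists. Other genes were named after their values were seen. Members and lists were chosen with earlier results of these data known, and 2 lists (oxylipin and cell cycle) were added once annotation names were seen.

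limma 3.58.1 (R 4.3.3) was fitted to 5 organ profiles, with 3 residual degrees of freedom and adult leaf as the mean of its filled arrays. The 2 adult leaf arrays correlated at r = -0.18 across 2035 probes, and a probe blank on one took the other alone. The fit was tried on simulated independent profiles, with 200 probes moved by a log2 of 2 up or down in root and ear. All 200 were recovered, with 7 false calls for root and ear against 0 and 8 for the difference from exposed organs. Smaller shifts and a shared print layout were not simulated. Other steps used Python 3.11.15.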

Additional observations from a re-analysis of the deposited data

Results flagged for a closer look

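HRGP differed between the organs by 1.94 (ear minus root), with ear above and root below control, and this difference was not tested because each organ is 1 profile. Probe 4_71 differed between shielded and exposed organs by -1.76 (limma adjusted p = 0.0335). It was below 0 in 2 of 2 shielded organs and above 0 in all 3 exposed ones. The same profiles picked the probe, so these signs are no separate support. Its adult leaf arrays stood far apart, at 0.13 and 3.44. The call was lost with block or plate medians at 0, the median of spots, all 3 spots required, or adult leaf array 1 alone.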

How the results depend on the processing

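No paired analysis was possible because each organ has 1 distinct profile. At a 2-fold threshold the root counts were 49 above and 3 below and the ear counts 8 and 21, and no probe lay past it above in both organs (0), below in both (0) or below in root and above in ear (0), while 1 lay above in root and below in ear. As deposited, root had 263 above and 219 below and ear 58 and 505. With profiles scaled to equal spread ear had 61 above and 103 below. With probes of a gene averaged 4 named root values lay below. With plate medians at 0 the correlation was 0.42 and rho 0.45, and 21 probes lay above in both. Of the named extremes 11 of 21 root values and 12 of 21 ear values stayed past 1.5-fold with plate medians at 0, 21 of 21 and 12 of 21 with block medians at 0, and 21 of 21 and 10 of 21 with scaled profiles. For root and ear together against 0, leaving out 1 profile gave 0 to 7 calls (7 without root, 6 without ear, 7 without seedling leaf) and partly filled probes 4. For the difference from exposed organs, leaving out 1 profile gave 0 to 13 calls (13 without root, 2 without ear, 5 without seedling leaf, 0 without adult leaf, 2 without tassel), partly filled probes 2, and each of block medians, plate medians, median of spots, all 3 spots, adult leaf array 1 alone, root turned, ear turned and adult leaf array 2 turned (the last chosen after seeing the data) 0. A lone organ left in a class is assumed to vary like the others. The causes were not tested. The calls differed in direction. For root and ear against 0 there were 1 higher and 6 lower without root and 6 higher and 0 lower without ear. For the difference from exposed organs, where the fit of all 5 profiles had 1 lower, there were 2 higher and 0 lower both without ear and with partly filled probes. Of the ear spots 47.4% are filled and 1 profile per organ limits every value.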
